A study of Homo sapiens and Mus musculus with 10 samples.

Results

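The genes described here are 57 mitosis and spindle genes, a list of regulators of mitotic entry, the spindle assembly checkpoint, the kinetochore, the mitotic kinesins, the chromosomal passenger complex, cytokinesis and chromosome condensation. They were chosen by name, and their rows were found by gene symbol, ignoring case. All 57 of the 57 were among the 27800 gene symbols of the human table and 56 of 57 among the 24493 symbols of the mouse table, where no symbol matched KIF4A. Every matched gene passed the filter of a mean of at least 1 TPM, so 57 of 12436 genes tested in MOLM-13 and 56 of 11362 in ER-Hoxa9 belonged to the list. RNA sequencing compared cells given WM-1119, a small-molecule inhibitor of the histone acetyltransferase KAT6A, with cells given DMSO. The question was how inhibition of KAT6A alters transcription in leukaemia cells. The human acute myeloid leukaemia line MOLM-13 was treated with 4 µM WM-1119 (3 DMSO and 3 WM-1119 libraries), and the mouse line ER-Hoxa9 with 2 µM (2 DMSO and 2 WM-1119 libraries), each for 4 days. ER-Hoxa9 cells are myeloid progenitors held by a Hoxa9 protein fused to the hormone-binding part of the estrogen receptor. Both arms were grown with β-estradiol and with medium conditioned by cells that secrete stem cell factor, so the controls carry these agents too, and MOLM-13 cells received neither. Each line stands for a single cell model, and the doses differ between the lines. Whether the replicates are separate cultures is not given in the labels. A p-value here sets the difference between groups against the spread of libraries within a group, and that spread may be only technical.

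Mitosis begins when cyclin B and its kinase partner, with the Aurora and Polo-like kinases, drive chromosome condensation and the building of a spindle. Chromosomes attach to spindle microtubules through kinetochores, and the checkpoint holds the cell before anaphase until attachment is complete, after which the anaphase-promoting complex (APC/C) marks securin and cyclin B for destruction and separase cuts cohesin. Transcripts of many of these genes are low in G1 and peak in G2 and M phase, under the MuvB complexes and FOXM1, so in a bulk sample their level follows the share of cells in those phases as well as the amount of RNA per cell. Fewer cells of a phase or type and less RNA per cell cannot be told apart in such samples.

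Promoters of genes of this kind are known for CCAAT boxes and for the cell cycle homology region, TTTGAA, where MuvB complexes bind. RefSeq promoters (GRCh38.p14, 250 bases before to 50 bases after each start) were matched by symbol for 49 of the 57 human genes. The 8 genes without a match were TPX2, TTK, BIRC5, AURKA, UBE2C, BUB3, RACGAP1 and FOXM1. The 49 have 63 promoters in the table, and a gene was counted when any of its promoters held the motif, so the like comparison is the 9012 genes tested in MOLM-13 with a promoter, counted the same way. On either strand, CCAAT was found in 38 of the 49 (77.6%), in 43.1% of the tested genes and in 34.6% of all 35116 single promoters. TTTGAA was found in 36 of 49 (73.5%), in 13.5% of tested genes and in 15.2% of all promoters. The related TTTAAA was found in 13 of 49 (26.5%), in 10.3% of tested genes and in 12.2% of all promoters. Both CCAAT and TTTGAA, which can share at most 1 base, were found in 27 of 49 (55.1%), in 5.54% of tested genes and in 5.90% of all promoters. A TTTGAA that began 50 to 1 bases before the start was found in 20 of the 49, in 2.42% of tested genes and in 2.56% of all promoters. These matches describe the letters of the window and were not tested as binding sites. The 200 bases before the RefSeq start are given for 3 genes, as examples of promoters with both motifs that do not stand for the layout in the group: CCNB2 (chr15:59104946-59105145, plus strand), PLK1 (chr16:23678689-23678888, plus strand) and TOP2A (chr17:40417897-40418096, minus strand). They were chosen after the values were seen, as those with the largest change in ER-Hoxa9 among the named genes that have a single promoter in the table and hold both motifs within those 200 bases. Capitals mark CCAAT and TTTGAA on either strand.
CCNB2: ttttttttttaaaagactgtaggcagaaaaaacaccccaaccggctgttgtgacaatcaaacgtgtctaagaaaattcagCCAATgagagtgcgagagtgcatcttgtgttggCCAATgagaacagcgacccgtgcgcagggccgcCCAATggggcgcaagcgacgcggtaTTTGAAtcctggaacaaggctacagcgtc
PLK1: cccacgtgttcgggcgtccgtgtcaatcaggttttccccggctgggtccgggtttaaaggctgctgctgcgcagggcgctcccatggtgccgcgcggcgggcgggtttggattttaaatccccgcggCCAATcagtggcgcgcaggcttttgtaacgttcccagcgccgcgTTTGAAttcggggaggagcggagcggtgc
TOP2A: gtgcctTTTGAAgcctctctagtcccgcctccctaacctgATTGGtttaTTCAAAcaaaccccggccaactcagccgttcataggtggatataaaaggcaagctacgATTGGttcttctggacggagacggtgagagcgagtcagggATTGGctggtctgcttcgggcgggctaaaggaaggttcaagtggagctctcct
In CCNB2 the CCAAT matches begin 120, 87 and 54 bases before the start and the TTTGAA 29 bases before it. PLK1 has 1 CCAAT at 73 bases and 1 TTTGAA at 29 bases, the same distance as in CCNB2. TOP2A has CCAAT matches at 160, 93 and 53 bases, and its TTTGAA matches lie farther out, at 194 and 151 bases.

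Libraries of the same group differed in these genes before any comparison between groups. In MOLM-13 the summed TPM of the 57 genes was 2551, 2337 and 1178 in DMSO replicates 1, 2 and 3 and 2639, 2530 and 1572 in WM-1119 replicates 1, 2 and 3. Both replicate 3 libraries stood apart: 56 of 57 genes had their lowest value in DMSO replicate 3, and for 53 of 57 both replicate 3 libraries were the 2 lowest of the 6. Same-numbered MOLM-13 libraries deviated together across all genes and were taken as pairs. The replicate 3 libraries also held more transcripts of ribosomal protein genes, 40.1% and 34.1% of all TPM against 25.9% to 28.7% in the other 4, and less MPO, a myeloid granule enzyme, at 10.6 and 15.2 TPM against 34.8 to 55.1 TPM. Of the erythroid markers, the globin HBB reached 52.1 TPM (DMSO) and 49.4 TPM (WM-1119) in replicate 3 and 0 to 0.14 TPM in the other 4, and the globin HBA1 at 95.2 and 158 TPM against 0 to 0.44 TPM. The erythroid factor KLF1 stayed under 1 TPM in all 6, and the receptor EPOR was at 9.89 to 15.95 TPM without standing apart in replicate 3. In ER-Hoxa9 the summed TPM of the 56 genes was 1890 and 2783 in DMSO replicates 1 and 2 and 3933 and 3146 in WM-1119 replicates 1 and 2. DMSO replicate 1 was the lowest library for 56 of 56 genes, and it also held 385 TPM of Mpo against 1380, 1419 and 1512 TPM in the others and the most ribosomal protein transcripts (34.3% against 27.9% to 30.1%). The labelled lines expressed myeloid genes, with SPI1 at 248 to 320 TPM, FLT3 at 134 to 178 TPM and HOXA9 at 55.2 to 114 TPM in MOLM-13, while the stem cell factor receptor KIT was under 0.5 TPM there. The 12 myeloid progenitor markers summed to 12926, 8204 and 6296 TPM in DMSO and 14259.5, 10765 and 8897 TPM in WM-1119 in MOLM-13, and single markers differed between the groups, none of them called. The lysozyme gene LYZ was at 1969, 1465 and 607 TPM in DMSO and 3292, 2894 and 2090 TPM in WM-1119. CSF3R was at 96.9, 108 and 82.5 TPM in DMSO and 134, 125 and 124 TPM in WM-1119. Neither overlapped between groups. All WM-1119 libraries lay above all DMSO libraries for 3 of the 11 markers tested in MOLM-13, against 4.54% of all genes tested. FLT3 was lower with WM-1119 in 3 of 3 pairs there. In ER-Hoxa9, Kit was at 205 to 303 TPM and Hoxa9 at 254 to 283 TPM, and the 11 of 12 myeloid progenitor markers measured summed to 1634 and 2957 TPM in DMSO and 3545 and 3607 TPM in WM-1119. For 8 of these 11 both WM-1119 libraries lay above both DMSO libraries, against 40.3% of all genes tested. Flt3 was 1 of them, at 146 and 161 TPM in DMSO and 219 and 243 TPM in WM-1119, the other direction from MOLM-13. The 4 B cell markers summed to 29 and 36.9 TPM in DMSO and 38.2 and 46.1 TPM in WM-1119, mostly from Ebf1 (27.6 and 33.1 against 25.8 and 38 TPM), while Cd79a was at 1.35 and 3.58 TPM in DMSO and 12.1 and 7.76 TPM in WM-1119, with no overlap. Ms4a1, Cd3e and Cd3g were listed at 0 in every ER-Hoxa9 library. Of the 3 T and NK cell markers in the mouse table, 1 was not at 0 and passed the filter. The part of these differences and markers in the results was not tested.

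**Figure D1:**
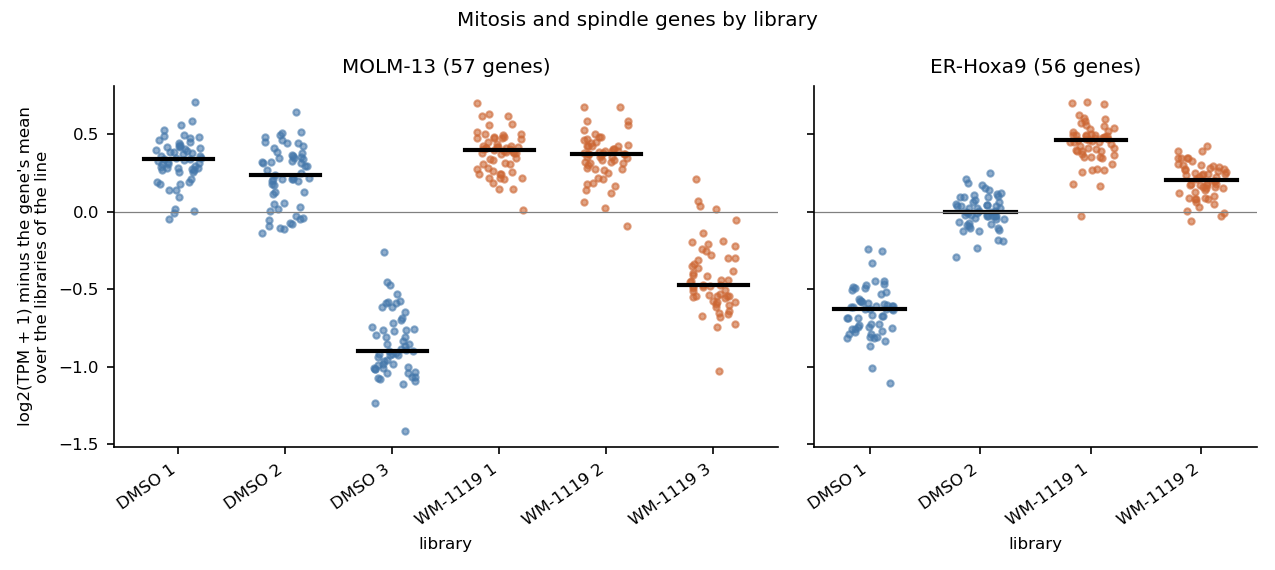
Each point is 1 mitosis or spindle gene in 1 library, as log2(TPM + 1) minus that gene's mean over the libraries of its line, with DMSO in blue, WM-1119 in orange and black lines at the medians. In MOLM-13 both replicate 3 libraries lie below the others (medians -0.90 and -0.48), and in ER-Hoxa9 the libraries order as DMSO 1 (-0.63), DMSO 2 (-0.0029), WM-1119 2 (0.21) and WM-1119 1 (0.46).

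In ER-Hoxa9 cells, mitosis and spindle genes were higher on average with WM-1119, and none was called. All 56 genes had a positive log2 change, against 71.9% of all genes tested, and their median was 0.66 where the median of all genes was 0.12. Changes are differences of mean log2(TPM + 1), WM-1119 minus DMSO, which understate the change of low genes. They ran from 0.20 for Spc24 to 1.12 for Spc25, with SEs of 0.14 to 0.37. With limma, 0 of 56 genes passed a Benjamini-Hochberg adjusted p of 0.05 in either direction, where 0.0176% of all genes were called higher and 0.0176% lower. The lowest adjusted p among them was 0.300, for Pttg1. At an unadjusted p under 0.05, 26 of 56 genes were higher, against 11.6% of all genes tested. Both WM-1119 libraries lay above both DMSO libraries for 51 of 56, against 40.3% of all genes, and the values of Plk4, Mad2l1, Spc24, Smc4 and Ncapg overlapped. The gap between the 2 DMSO libraries, a median of 0.66 with replicate 1 lower, was larger than the log2 change in 27 of 56 genes. Against DMSO replicate 2 alone, the median difference was 0.46 for WM-1119 replicate 1 (54 of 56 positive) and 0.18 for WM-1119 replicate 2 (51 of 56 positive). Over all genes these medians were 0.14 and 0.07. Without DMSO replicate 1 the median change was 0.32, with 54 of 56 positive, beside 0.10 over all genes. It was 0.55 without WM-1119 replicate 1 and 0.98 without DMSO replicate 2, beside 0.09 and 0.14 over all genes. Each of these fits leaves a single library in a group.

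These values depended on the scaling. With median-of-ratios scaling the median of all ER-Hoxa9 genes moved from 0.12 to -0.0031 and the share of all genes with a positive change from 71.9% to 49.4%, while the mitosis genes kept a median of 0.53 and 56 of 56 positive changes. The count higher at an unadjusted p under 0.05 was then 12 of 56, against 732 of all 11352 genes tested. With quantile normalization it was 14 of 56, against 693 of 11362. Without such scaling these counts were 26 of 56 and 1322 of 11362.

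In MOLM-13 cells the same genes were slightly higher with WM-1119 and none was called. Of 57 genes, 55 had a positive log2 change, against 61.5% of all genes tested, with a median of 0.19 against 0.05 over all genes. The changes ran from -0.19 for SMC4 to 0.47 for SPC25, and UBE2S was the other gene below 0, at -0.0054. With limma 0 of 57 passed an adjusted p of 0.05, and the lowest adjusted p was 0.999985. Of all genes tested, 0% were called higher and 0.00804% lower. At an unadjusted p under 0.05, 0 of 57 were higher and 0 lower, against 2.08% and 0.965% of all genes. All WM-1119 libraries lay above all DMSO libraries for 2 of 57, PTTG1 and SPC25, against 4.54% of all genes, a share near that of the list. With median-of-ratios scaling 51 of 57 changes were positive, with a median of 0.12, and the share of all genes that was positive moved from 61.5% to 47.7%.

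Within the same-numbered MOLM-13 pairs the difference was uneven. The median over the 57 genes was 0.06 in pair 1 (39 positive), 0.11 in pair 2 (42 positive) and 0.44 in pair 3 (56 positive), where all genes had medians of 0.03, 0.02 and 0.10. The summed TPM was 1.03, 1.08 and 1.33 times as high with WM-1119 in pairs 1, 2 and 3. In 31 of 57 genes WM-1119 was higher in every pair, against 28.6% of all genes tested, and in 1, SMC4, it was lower in every pair, against 14.4%. With the replicate number as a block, limma gave SEs of 0.070 to 0.19 instead of 0.19 to 0.66. Then 13 of 57 were higher at an unadjusted p under 0.05, against 13.2% of all genes, and 1 was lower, against 4.91%, but 0 passed the adjusted threshold (lowest adjusted p 0.146, PTTG1). Leaving out the replicate 3 pair took the blocked median to 0.08, with 46 of 57 positive and 4 higher at an unadjusted p under 0.05. Over all genes the median was then 0.03, with 56.5% positive and 715 of 12354 higher at that p. Without a block, leaving out DMSO replicate 3 turned the median to -0.21, with 51 of 57 changes negative. That fit keeps the partner, WM-1119 replicate 3, and so breaks the pair.

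**Figure D2:**
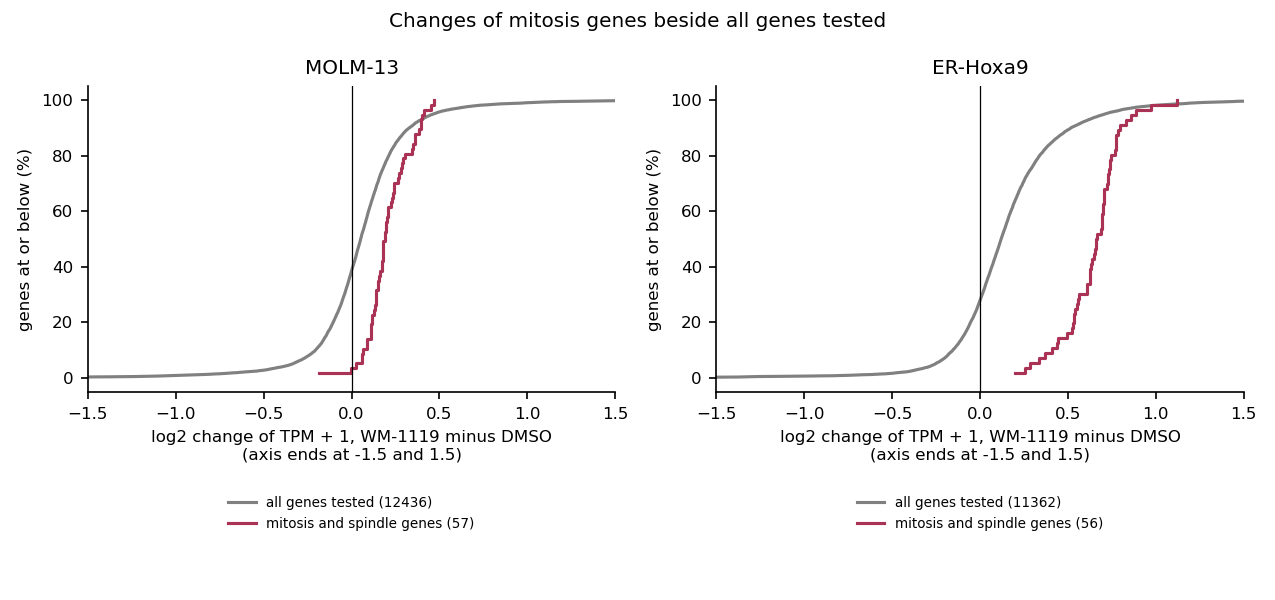
The curves give the share of genes (%) at or below each log2 change of TPM + 1, WM-1119 minus DMSO, for all genes tested (grey) and for the mitosis and spindle genes (red). The red curve crosses 50% at 0.19 in MOLM-13 and 0.66 in ER-Hoxa9, and the grey curve at 0.05 and 0.12.

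The list's regulators of mitotic entry are the cyclin CCNB2, the kinases PLK1, PLK4, AURKA and NEK2, the phosphatases CDC25B and CDC25C that activate cyclin-dependent kinases, and FOXM1, a transcription factor of G2 and M phase genes. In ER-Hoxa9 all 8 changes were positive, from 0.44 to 0.97 with a median of 0.68, and 5 of 8 had an unadjusted p under 0.05 (11.6% of all genes tested). Ccnb2, whose protein activates CDK1, had 45.9 and 78.4 TPM with DMSO and 131 and 108 TPM with WM-1119, a log2 change of 0.97 ± 0.27 (SE; limma, adjusted p = 0.313). The DMSO libraries differed from each other by more than the WM-1119 libraries did, and the groups did not overlap. Plk1, the kinase of centrosome maturation and mitotic exit, was at 34.2 and 46.2 TPM in DMSO and 77.7 and 62.6 TPM in WM-1119 (log2 change 0.80 ± 0.19, limma adjusted p = 0.309). Both WM-1119 values lay above both DMSO values, with replicate 1 the lower control and the higher treated library. Foxm1 was at 14.5 and 21.7 TPM in DMSO and at 32 and 27.2 TPM in WM-1119, a log2 change of 0.70 ± 0.21. Cdc25b was at 12.1 and 13.8 TPM in DMSO and at 28.6 and 18.0 TPM in WM-1119, a log2 change of 0.77 ± 0.24. For Cdc25b the controls were close and the treated libraries far apart, the reverse of Ccnb2.

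In MOLM-13 the 8 entry genes had changes of 0.14 to 0.36 with a median of 0.20, at levels of 2.93 to 78.8 TPM. PLK1 was at 71.8, 77.5 and 28.0 TPM in DMSO and at 75.7, 78.8 and 39.2 TPM in WM-1119, a log2 change of 0.19 ± 0.44. Replicate 3 was the lowest of each group, and PLK1 was higher with WM-1119 in 3 of 3 pairs. Without DMSO replicate 3, and with its partner WM-1119 replicate 3 kept, the PLK1 change was -0.27. CDC25B was at 36.9, 47.4 and 18.7 TPM in DMSO and at 44.3, 55.2 and 29.2 TPM in WM-1119, a log2 change of 0.36 ± 0.38, or ± 0.10 with the replicate block (limma, adjusted p = 0.204). It was higher with WM-1119 in 3 of 3 pairs, while the groups overlapped.

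**Figure D3:**
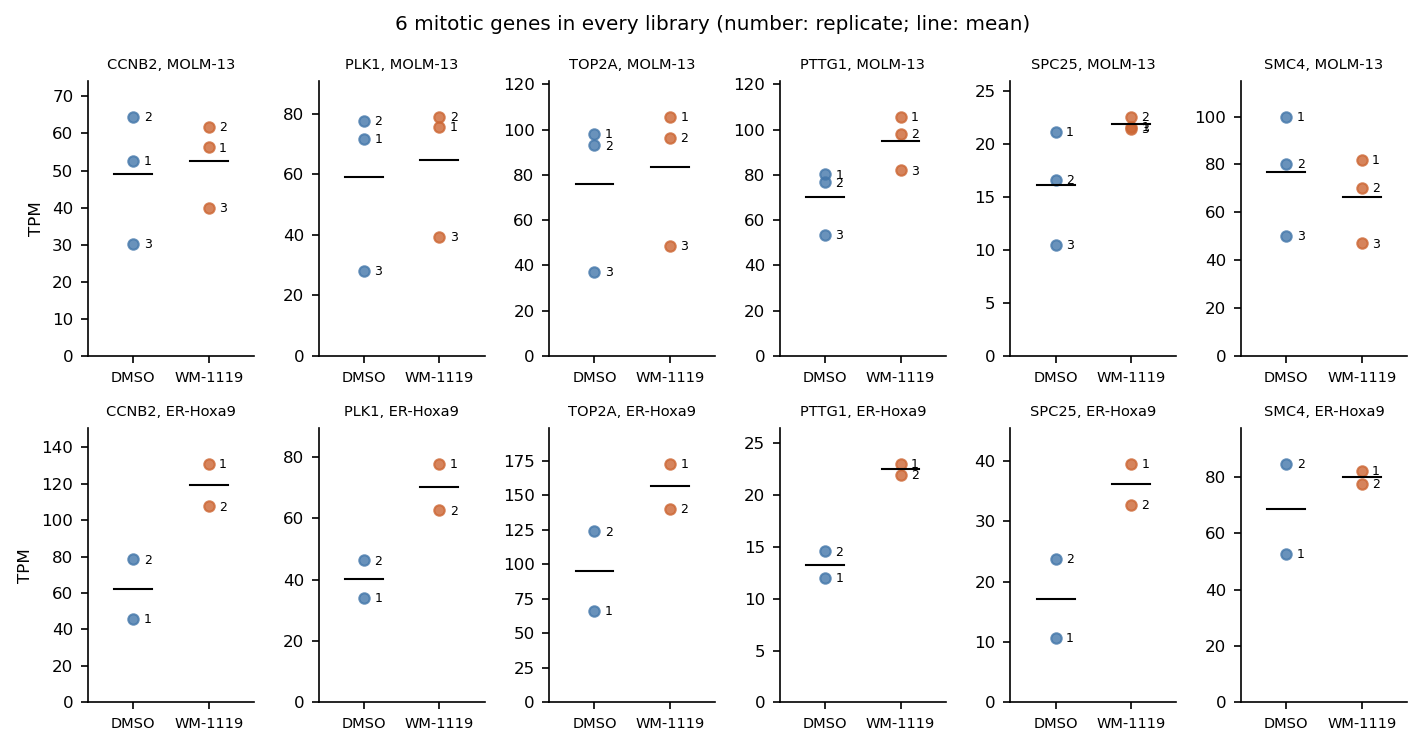
TPM of 6 mitotic genes in each library of MOLM-13 (top) and ER-Hoxa9 (bottom), with replicate numbers beside the points and lines at group means. Groups overlap for CCNB2, PLK1, TOP2A and SMC4 in MOLM-13 and for Smc4 in ER-Hoxa9, and do not overlap in the other panels.

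The checkpoint genes BUB1, BUB1B, BUB3, MAD2L1 and TTK encode the kinases and adaptors that hold the APC/C back at unattached kinetochores. Their changes ran from 0.29 to 0.89 in ER-Hoxa9 (median 0.61) and from 0.07 to 0.22 in MOLM-13 (median 0.15), and none was called. Bub1 had 8.89 and 20.5 TPM in the DMSO libraries of ER-Hoxa9 and 27.0 and 25.1 TPM in the WM-1119 libraries, a log2 change of 0.89 ± 0.37. DMSO replicate 1 was far below the other 3 libraries. Bub1b had 23.8 and 36.0 TPM in DMSO and 54.8 and 48.0 TPM in WM-1119 (log2 change 0.79 ± 0.22, limma adjusted p = 0.312), with no overlap. Mad2l1, whose protein binds and holds the activator CDC20, had 65.8 and 85.4 TPM in DMSO and 106 and 79.3 TPM in WM-1119, a log2 change of 0.29 ± 0.20, and here WM-1119 replicate 2 lay below DMSO replicate 2. The most abundant checkpoint gene in both lines was BUB3, which also acts outside the checkpoint. It had 75.3 and 84.8 TPM in DMSO and 114 and 89.3 TPM in WM-1119 in ER-Hoxa9 (log2 change 0.34 ± 0.16). In MOLM-13 it had 185, 128 and 97.5 TPM in DMSO and 181, 127 and 116 TPM in WM-1119 (0.07 ± 0.29). The MOLM-13 value for BUB3 was within its SE of 0 and changed sign with median-of-ratios scaling and with quantile normalization.

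CDC20, the activator of the APC/C, its ubiquitin-conjugating enzymes UBE2C and UBE2S, separase (ESPL1) and its inhibitor securin (PTTG1) had the highest median of the role groups in MOLM-13, 0.36, and a median of 0.70 in ER-Hoxa9. No test compared role groups. PTTG1 was at 80.2, 76.6 and 53.4 TPM in DMSO and at 105, 98.0 and 81.9 TPM in WM-1119 in MOLM-13, a log2 change of 0.45 ± 0.22. Every treated library was above every control, and the blocked SE was 0.079 (limma, adjusted p = 0.146). In ER-Hoxa9, Pttg1 was at 12 and 14.6 TPM in DMSO and at 23.0 and 21.9 TPM in WM-1119, a log2 change of 0.72 ± 0.14 (limma, adjusted p = 0.300). Its controls lay closer together, relative to the change, than those of Ccnb2, Bub1 or Top2a, and it had the smallest unadjusted p of the list in both lines. Human PTTG1 has near-identical copies, so its estimate is uncertain. UBE2C was at 89.7, 75 and 52.7 TPM in DMSO and at 103, 92.0 and 85.3 TPM in WM-1119 in MOLM-13, a log2 change of 0.39 ± 0.23, higher in 3 of 3 pairs. UBE2S, which extends the ubiquitin chains that UBE2C begins, was the most abundant gene of the list in ER-Hoxa9. Ube2s was at 308 and 334 TPM in DMSO and at 481 and 357 TPM in WM-1119 there (log2 change 0.37 ± 0.17). In MOLM-13 UBE2S was at 186, 184 and 140.4 TPM in DMSO and at 169.7, 183 and 153 TPM in WM-1119 (-0.0054 ± 0.19). The pair of enzymes thus had a value near 0 for UBE2S beside 0.39 for UBE2C in MOLM-13, a difference that was not tested.

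The 12 mitotic kinesins are motors that position spindle poles (KIF11, KIF15, KIFC1), align and move chromosomes (KIF18A, KIF18B, KIF2C, KIF22, KIF4A) or act at the midzone and midbody (KIF14, KIF20A, KIF20B, KIF23). The 11 measured in ER-Hoxa9 had changes of 0.44 to 0.77 with a median of 0.65, 4 of them higher at an unadjusted p under 0.05 (11.6% of all genes tested), and in all 11 both WM-1119 libraries lay above both DMSO libraries (40.3% of all genes). Kif20a was at 22.5 and 32 TPM in DMSO and at 49.1 and 41.4 TPM in WM-1119, a log2 change of 0.73 ± 0.20 (limma, adjusted p = 0.312). Kif11, the most abundant kinesin there, was at 35.5 and 68.4 TPM in DMSO and at 79.8 and 73.4 TPM in WM-1119, a log2 change of 0.62 ± 0.31. DMSO replicate 2 was much closer to the treated libraries than to the other control for Kif11. In MOLM-13 all 12 kinesins had small positive changes, 0.06 to 0.35 with a median of 0.14. KIF22, a chromosome arm motor and the most abundant, was at 75.3, 75.4 and 42.5 TPM in DMSO and at 79.1, 73.9 and 56.9 TPM in WM-1119, a log2 change of 0.15 ± 0.27. It was higher in 2 of 3 pairs. KIF4A shares sequence with the retrocopy KIF4B, which makes its estimate uncertain.

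The centromere and kinetochore genes cover the histone variant CENPA, the motor CENPE, CENPF and the 4 subunits of the NDC80 complex, NDC80, NUF2, SPC24 and SPC25, which binds microtubules. The values of its subunits are given side by side, and differences between them were not tested. In ER-Hoxa9, Spc25 was at 10.7 and 23.8 TPM in DMSO and at 39.5 and 32.7 TPM in WM-1119, a log2 change of 1.12 ± 0.36 (limma, adjusted p = 0.347) and the highest of the list. Spc24, its binding partner, was at 21.0 and 34.6 TPM in DMSO and at 28.5 and 34.1 TPM in WM-1119, a log2 change of 0.20 ± 0.25 and the lowest of the list. For Spc24 both treated libraries lay between the controls. In MOLM-13 the pair had close values. SPC25 was at 21.2, 16.7 and 10.5 TPM in DMSO and at 21.6, 22.6 and 21.5 TPM in WM-1119 (log2 change 0.47 ± 0.25), with the treated libraries level and the controls spread. SPC24 was at 22.8, 17.2 and 10.3 TPM in DMSO and at 21.6, 24.5 and 19.1 TPM in WM-1119 (0.41 ± 0.29). NUF2 was at 24.7, 19.4 and 11.0 TPM in DMSO and at 26.0, 22.6 and 16.8 TPM in WM-1119 (0.29 ± 0.31). NDC80 itself was at 25.9, 28.6 and 11.8 TPM in DMSO and at 28.5, 29.1 and 16.5 TPM in WM-1119 (0.21 ± 0.37), and its groups overlapped, as did those of NUF2 and SPC24. Cenpa, the most abundant gene of the group in ER-Hoxa9, was at 92.1 and 137 TPM in DMSO and at 209 and 162 TPM in WM-1119, a log2 change of 0.71 ± 0.23. The 7 genes had a median of 0.69 in ER-Hoxa9, with 4 higher at an unadjusted p under 0.05 (11.6% of all genes), and of 0.24 in MOLM-13, with 0 (2.08% of all genes).

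The chromosomal passenger complex corrects faulty attachments and later directs cytokinesis, through the kinase AURKB and its partners INCENP, BIRC5 (survivin) and CDCA8 (borealin). Its 4 genes had changes of 0.56 to 0.74 in ER-Hoxa9 and 0.16 to 0.28 in MOLM-13, a narrow range within each line. Birc5 was at 41.5 and 74.9 TPM in DMSO and at 99.1 and 89.1 TPM in WM-1119 in ER-Hoxa9, a log2 change of 0.74 ± 0.28 (limma, adjusted p = 0.385). AURKB was at 53.9, 53.6 and 31.4 TPM in DMSO and at 52.5, 52.5 and 45.8 TPM in WM-1119 in MOLM-13, a log2 change of 0.16 ± 0.25. In pairs 1 and 2 AURKB was slightly lower with WM-1119, so its positive mean came from pair 3, and without that pair the blocked value was -0.033.

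Among the spindle assembly factors, TPX2 activates AURKA, TACC3 cross-links kinetochore fibres, and NUSAP1, HMMR and DLGAP5 bind or bundle spindle microtubules. Their median was the highest of the role groups in ER-Hoxa9, 0.75, with changes of 0.56 to 0.86. Nusap1 was at 13.2 and 23.2 TPM in DMSO and at 34.6 and 30.6 TPM in WM-1119, a log2 change of 0.86 ± 0.27 (limma, adjusted p = 0.342). Tacc3 was at 42.3 and 66.5 TPM in DMSO and at 89.8 and 68.7 TPM in WM-1119, a log2 change of 0.56 ± 0.25, with DMSO replicate 2 just below WM-1119 replicate 2. In MOLM-13, TACC3 was at 77.1, 58.2 and 30.4 TPM in DMSO and at 88.2, 77.0 and 46.3 TPM in WM-1119, a log2 change of 0.39 ± 0.39, or ± 0.10 with the block (limma, adjusted p = 0.176). NUSAP1 was at 76.7, 73.0 and 31.9 TPM in DMSO and at 81.6, 88.3 and 47.5 TPM in WM-1119 (0.31 ± 0.39). Both were higher in 3 of 3 pairs. TPX2 was not: it was at 61.3, 70.3 and 27.5 TPM in DMSO and at 58.9, 69.7 and 30.7 TPM in WM-1119 (0.03 ± 0.43), and its sign turned with median-of-ratios scaling, quantile normalization or removal of ribosomal protein genes.

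The genes of the midzone and cytokinesis are PRC1, which bundles antiparallel microtubules, RACGAP1 and ECT2, which control RhoA at the division plane, and ANLN, which organises the contractile ring. In ER-Hoxa9 their changes lay between 0.61 and 0.71. Racgap1 was at 30.8 and 47.8 TPM in DMSO and at 67.3 and 51.8 TPM in WM-1119, a log2 change of 0.61 ± 0.25. In MOLM-13, ECT2 was at 12.2, 9.80 and 4.61 TPM in DMSO and at 14.0, 12.5 and 8.03 TPM in WM-1119, a log2 change of 0.40 ± 0.35 (± 0.12 with the block; limma, adjusted p = 0.213). ANLN was at 20.7, 14.9 and 6.63 TPM in DMSO and at 22.9, 18.9 and 10.5 TPM in WM-1119, a log2 change of 0.35 ± 0.43. PRC1 was at 48.5, 45.2 and 16.9 TPM in DMSO and at 51.1, 47.0 and 23.6 TPM in WM-1119 (0.19 ± 0.46). All 3 were higher with WM-1119 in each pair, and in all 3 the replicate 3 libraries were the 2 lowest.

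The chromosome structure genes are topoisomerase TOP2A, which untangles sister chromatids, the condensin subunits SMC2, SMC4, NCAPD2, NCAPG and NCAPH, and MKI67, the proliferation marker Ki-67 that coats mitotic chromosomes. Top2a was at 66.2 and 124 TPM in DMSO and at 173 and 140.1 TPM in WM-1119 in ER-Hoxa9, a log2 change of 0.77 ± 0.31 (limma, adjusted p = 0.394). In MOLM-13, TOP2A was at 97.9, 93.0 and 37.2 TPM in DMSO and at 105, 96.4 and 48.8 TPM in WM-1119 (0.18 ± 0.45). The 2 groups were close except in replicate 3. The condensin subunits differed in direction within MOLM-13. SMC4 was at 99.7, 80.2 and 50.1 TPM in DMSO and at 81.8, 70.2 and 47.0 TPM in WM-1119 (-0.19 ± 0.32), lower in 3 of 3 pairs, with a blocked SE of 0.070 and an unadjusted p of 0.0465 there (limma, adjusted p = 0.270). NCAPH was at 19.3, 14.3 and 5.93 TPM in DMSO and at 20.7, 18.3 and 10.5 TPM in WM-1119 (0.39 ± 0.43), higher in 3 of 3 pairs. Its blocked SE was 0.136, with an unadjusted p of 0.0379 (limma, adjusted p = 0.256). The difference between SMC4 and NCAPH was not tested. In ER-Hoxa9, Smc4 had 52.7 and 84.6 TPM in DMSO and 82.2 and 77.6 TPM in WM-1119 (0.25 ± 0.23), where both treated libraries lay below DMSO replicate 2. Ncaph had 18.4 and 30.1 TPM in DMSO and 47.2 and 38.5 TPM in WM-1119 (0.83 ± 0.25), and Ncapd2 had 57.4 and 78.7 TPM in DMSO and 98.2 TPM in both treated libraries (0.54 ± 0.17). In both lines SMC4 had the lowest and NCAPH the highest change of the 7 chromosome structure genes.

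**Figure D4:**
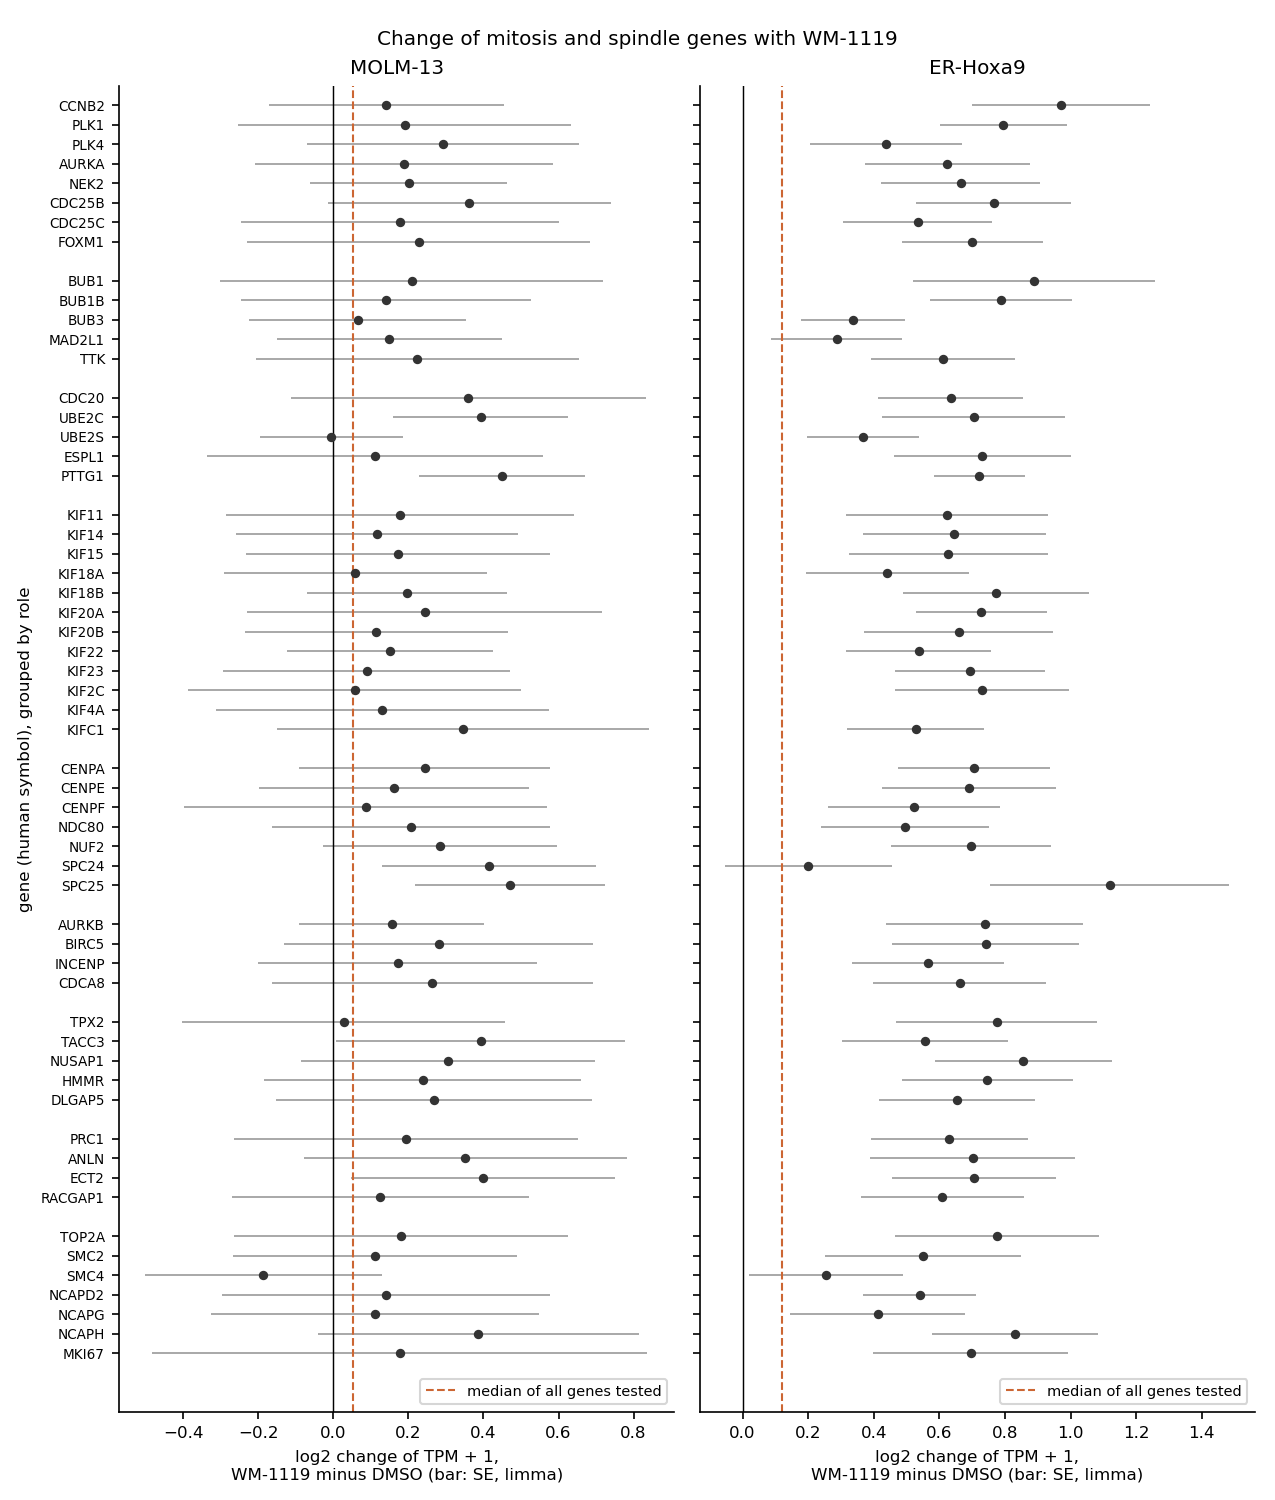
Log2 change of TPM + 1, WM-1119 minus DMSO, for each gene grouped by role, and a dashed line at the median of all genes tested. Bars are the SE from limma without the replicate block, so they ignore the pairing of MOLM-13 libraries. With the block the MOLM-13 SEs were 0.070 to 0.19, which are not drawn. In ER-Hoxa9 the values lie from 0.20 to 1.12, all right of the dashed line at 0.12, and in MOLM-13 every SE bar except those of UBE2C, PTTG1, SPC24, SPC25, TACC3 and ECT2 reaches 0.

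Genes of DNA replication, a list of 20 S phase genes used for comparison, had lower medians than the mitotic genes in 4 of the 5 library comparisons given here. In MOLM-13 the S phase list had pair medians of -0.03, 0.18 and 0.40, beside 0.06, 0.11 and 0.44 for the mitotic genes. In ER-Hoxa9 its median change was 0.34 with 20 of 20 positive, 4 at an unadjusted p under 0.05 (11.6% of all genes) and 0 called. Against DMSO replicate 2, the S phase medians were 0.05 and 0.15 for WM-1119 replicates 1 and 2, beside 0.46 and 0.18 for the mitotic genes. The ratio of summed mitotic to summed S phase TPM was 1.20 and 1.37 in the DMSO libraries of ER-Hoxa9 and 1.82 and 1.36 in the WM-1119 libraries, so it stood apart in WM-1119 replicate 1 alone. In MOLM-13 that ratio was 0.960, 1.19 and 1.27 in DMSO and 1.00, 1.11 and 1.22 in WM-1119, overlapping throughout.

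Other genes of the mitotic machinery, on lists kept apart from the 57, gave 0 called genes in either direction in either line with limma. Over all ER-Hoxa9 genes tested, 71.9% had a positive change and 11.6% were higher at an unadjusted p under 0.05, and the APC/C and MuvB counts are near the second share. In ER-Hoxa9 the 25 other kinetochore genes tested had a median of 0.42 (25 positive, 4 at an unadjusted p under 0.05), the 13 other entry genes 0.41 (13 positive, 5) and the 18 centrosome genes 0.30 (18 positive, 4). The list of the APC/C, 14 core subunits and the activator Fzr1, had a median of 0.12 (13 of 15 positive, 2 at that p, Anapc5 and Fzr1), close to that of all genes, and the 10 subunits of the DREAM and MMB complexes, which carry MuvB, 0.15 (9 positive, 1). The 12 cohesin genes had a median of 0.23 (11 positive, 4) and the 3 remaining condensin genes 0.39 (3 positive, 0). The APC/C and MuvB lists thus lay near the level of all genes, and the kinetochore and entry genes lay between them and the 56 at 0.66. In MOLM-13 the medians of these lists ran from 0.06 for cohesin to 0.19 for the other kinetochore genes, with 0 genes at an unadjusted p under 0.05 without the replicate block. With the block, 3 of 15 APC/C, 3 of 26 kinetochore, 2 of 13 entry and 2 of 10 DREAM and MMB genes were higher at that p. So were 2 of 18 centrosome, 1 of 13 cohesin and 0 of 3 condensin genes, against 13.2% of all genes tested. The lowest adjusted p with the block was 0.133, for CDC26 (limma).

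Between the lines, 54 of the 56 genes measured in both had a positive change in each. Across those 56 genes the DMSO mean TPM had a Spearman correlation of 0.68 between MOLM-13 and ER-Hoxa9, and the log2 changes one of 0.30. These describe genes that share libraries and are not independent replicates, and the lines differ in species, dose and number of libraries. SPC25 had the highest change in both lines. SMC4 had the lowest change in MOLM-13 and the second lowest in ER-Hoxa9.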

How the data were processed

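RNA of 10 libraries was sequenced by a company. The authors deposited TPM per gene symbol, in 1 table for each line. The submitters' processing notes name Salmon, hg38 and mm10; the version and annotation were not given in the sources used here. TPM are shares of a library scaled for transcript length; they keep no depth, so depth is unknown and no counting interval is given. Groups came from the labels, and each column was assigned by its treatment and number, leaving 0 without a sample. The name of the line in the mouse columns differs from the labels, and these columns were assigned to ER-Hoxa9 because it is the only mouse line. For each line, genes whose mean reached 1 TPM were fitted as log2(TPM + 1) with limma 3.58.1 in R 4.3.3 (eBayes with trend, two-sided, Benjamini-Hochberg adjusted over all genes tested), and the fit was tested on simulated data. Summaries and plots used Python 3.11.15, pandas 2.3.3 and matplotlib 3.10.9.

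Values in every library are given for the most abundant gene of each role, the 10 with the smallest unadjusted p and the 3 with the highest and the 3 with the lowest log2 change (in ER-Hoxa9 the lowest are positive too), per line. The members and lists were chosen with earlier results of these data known. Same-numbered MOLM-13 libraries deviated together from their group means (correlations across genes of 0.52, 0.44 and 0.61, all over 0.1), so the numbers were taken to pair them; the labels do not say what a number shares. Alternatives were a pseudocount of 0.1 TPM, no filter or one at 5 TPM, median-of-ratios scaling, quantile normalization, removal of small RNA or ribosomal protein genes, eBayes without trend, the replicate block and leaving out each library or pair. Mouse promoters were not used here. One marker gene of the lists is not reported here.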

Additional observations from a re-analysis of the deposited data

How the results depend on the processing

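In every alternative run, 0 mitosis and spindle genes passed the adjusted p of limma in either line. In ER-Hoxa9, 207 of 207 values of the genes given in every library kept their direction under settings that keep all libraries. Leaving out a library turned 2 of 92, with a range of -0.082 to 0.59 for Smc4 and -0.15 to 0.55 for Spc24. The median of the list, which is not in these tallies, then ran from 0.32 to 0.98. In MOLM-13, 11 of 273 values of such genes turned under other settings and 23 of 126 on leaving out a library. The fits without a library have no block and keep its same-numbered partner, so they break a pair. With the block and a whole pair left out, the median of the list was 0.26, 0.24 and 0.08 without pairs 1, 2 and 3. BUB3 was -0.0034 with median-of-ratios scaling, with and without the replicate block, -0.028 with quantile normalization and -0.026 with the block and no replicate 3 pair. TPX2 was -0.040 with median-of-ratios scaling, with and without the block, -0.039 with quantile normalization, -0.030 without ribosomal protein genes and -0.035 with the block and no replicate 3 pair. With the block, UBE2S was 0.057 without the replicate 1 pair and AURKB -0.033 without the replicate 3 pair. The cause of these turns was not tested.

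Leaving out 1 MOLM-13 library gave ranges of -0.21 to 0.47 for the median, -0.076 to 0.68 for ANLN, -0.098 to 0.28 for AURKB, -0.15 to 0.31 for BUB3, -0.0095 to 0.64 for CDC25B, -0.12 to 0.29 for KIF22, -0.063 to 0.71 for NCAPH, -0.17 to 0.46 for NDC80, -0.027 to 0.52 for NUF2, -0.096 to 0.58 for NUSAP1, -0.27 to 0.51 for PLK1, -0.28 to 0.54 for PRC1, -0.46 to 0.039 for SMC4, -0.27 to 0.52 for TOP2A, -0.38 to 0.37 for TPX2 and -0.14 to 0.065 for UBE2S.

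The pairing of MOLM-13 libraries by number raised the genes at an unadjusted p under 0.05 from 0 to 13 higher and 1 lower. Over all 12436 genes tested it raised them from 259 to 1645 higher and from 120 to 611 lower. With median-of-ratios scaling too, 7 were higher and 1 lower, against 1098 and 1140 of all 12449 genes. The median with the replicate block was 0.19. In ER-Hoxa9 the same-numbered libraries had a correlation of 0.21, also over 0.1. With 2 libraries a group this value is the same for both numbers by construction. There too the labels do not say what a number shares. The replicate block gave 31 of 56 genes higher at an unadjusted p of limma under 0.05 against 26, and a median of 0.66. Over all 11362 genes tested the count was 1761 with the block against 1322. The count of the list was 14 without a filter, 18 without the trend and 33 without small RNA genes. Over all genes it was then 1662 of 17288, 1309 of 11362 and 1395 of 11213. TPM without depth, 2 or 3 libraries a group and libraries that stand apart limit all values.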
